A study of Mus musculus with 15 samples.

Results

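The genes of 9 secreted proteins of the Wnt pathway were examined, namely the ligand Wnt2, the R-spondins Rspo1 and Rspo3, the secreted Frizzled-related proteins Sfrp1, Sfrp2 and Sfrp4, the Dickkopf proteins Dkk2 and Dkk3, and the CCN protein Wisp2. They were taken as the 9 transcripts that carry these gene symbols in the expression table, out of 10222 symbols in all, and each symbol had 1 listed transcript. The study asked which cells of white adipose tissue (WAT) make the alarmin IL-33 and how they support group 2 innate lymphoid cells, and profiled sorted cells by RNA sequencing. The 5 populations sequenced had 3 libraries each. Il33+ WAT-MSC and Il33- WAT-MSC are mesenchymal stromal cells of mesenteric WAT, sorted as lineage-, CD45-, EpCAM-, CD31- and CD24- cells that carried PDGFRα, CD34, Sca1 and podoplanin, and divided by the citrine reporter. Lung Il33+ MSC are the citrine-positive stromal cells of lung, and the non-stromal populations are CD31+ endothelial cells of WAT and EpCAM+ epithelial cells of lung. All mice were C57BL/6 animals with the Il33-citrine reporter, so that Il33- cells carried it too. The study names mice with 1 reporter allele for its cytometry and histology, and does not state the allele number of the sequenced mice. Age, sex, and whether mice were pooled are not given in the sources used here, and p-values measure the spread between these libraries.

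Wnt ligands bind Frizzled receptors and LRP co-receptors on a nearby cell and stabilise β-catenin or trigger β-catenin-independent signals. R-spondins bind LGR receptors and keep Frizzled at the cell surface, which strengthens a Wnt signal. Secreted Frizzled-related proteins bind Wnt ligands outside the cell, and the Dickkopf protein Dkk2 acts on LRP co-receptors. In adipose tissue Wnt signals are known to restrain the conversion of stromal precursors into fat cells, and in lung they take part in the exchange between mesenchyme and epithelium.

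Levels are in RPKM, read numbers scaled to transcript length and library depth, so that genes of different length can be set side by side. The libraries held 42711843 to 60773158 alignments. Il33 itself was at 38.7 to 78.5 RPKM in Il33+ WAT-MSC, 4.31 to 6.76 RPKM in Il33- WAT-MSC and 43.0 to 55.7 RPKM in the lung stroma, and did not overlap between the citrine-positive and citrine-negative libraries. The summed RPKM of 12 stromal marker genes was 5123 to 10847 in the 9 stromal libraries, 129 to 229 in epithelial cells, but 2183 to 4537 in the endothelial libraries. In each endothelial library the endothelial list was high, at 636 to 774 RPKM against at most 66.0 RPKM in stromal cells, and the pericyte and smooth muscle list stood at 194 to 275 RPKM against at most 21.1 RPKM in stromal cells. The endothelial libraries thus held stromal and mural transcripts, and their part in the endothelial values given here was not tested. The first endothelial library had 10.9% of transcripts at 0, beside 1.87 to 7.41% in the other 14 libraries. In bulk samples, fewer cells of a type and less RNA per cell cannot be told apart.

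All 9 genes had their highest mean in a stromal population: 4 in Il33+ WAT-MSC, 2 in Il33- WAT-MSC and 3 in lung Il33+ MSC. Most of the populations were stromal, and the share of all genes with a stromal maximum was not computed. For Rspo1, Sfrp2, Wisp2, Wnt2 and Dkk2 the libraries of the highest population overlapped the endothelial ones. Sfrp1 had the highest level of the 9 in 12 of 15 libraries, including each of the 9 stromal ones. The summed level of the 9 genes was 364 to 498 RPKM in Il33+ WAT-MSC, 307 to 336 RPKM in the lung stroma, 218 to 306 RPKM in Il33- WAT-MSC, 116 to 199 RPKM in endothelial cells and 9.50 to 26.2 RPKM in epithelial cells. The stromal and endothelial ranges did not overlap, nor did the endothelial and epithelial ones. Sfrp1 alone made up 36.9 to 72.6% of the sum in the stromal libraries and 26.2 to 84.4% in the endothelial ones. The gap between these sums therefore does not speak for each gene. The Frizzled-related proteins made up most of each stromal sum, and Dkk3 was above Dkk2 in each population.

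**Figure D1:**
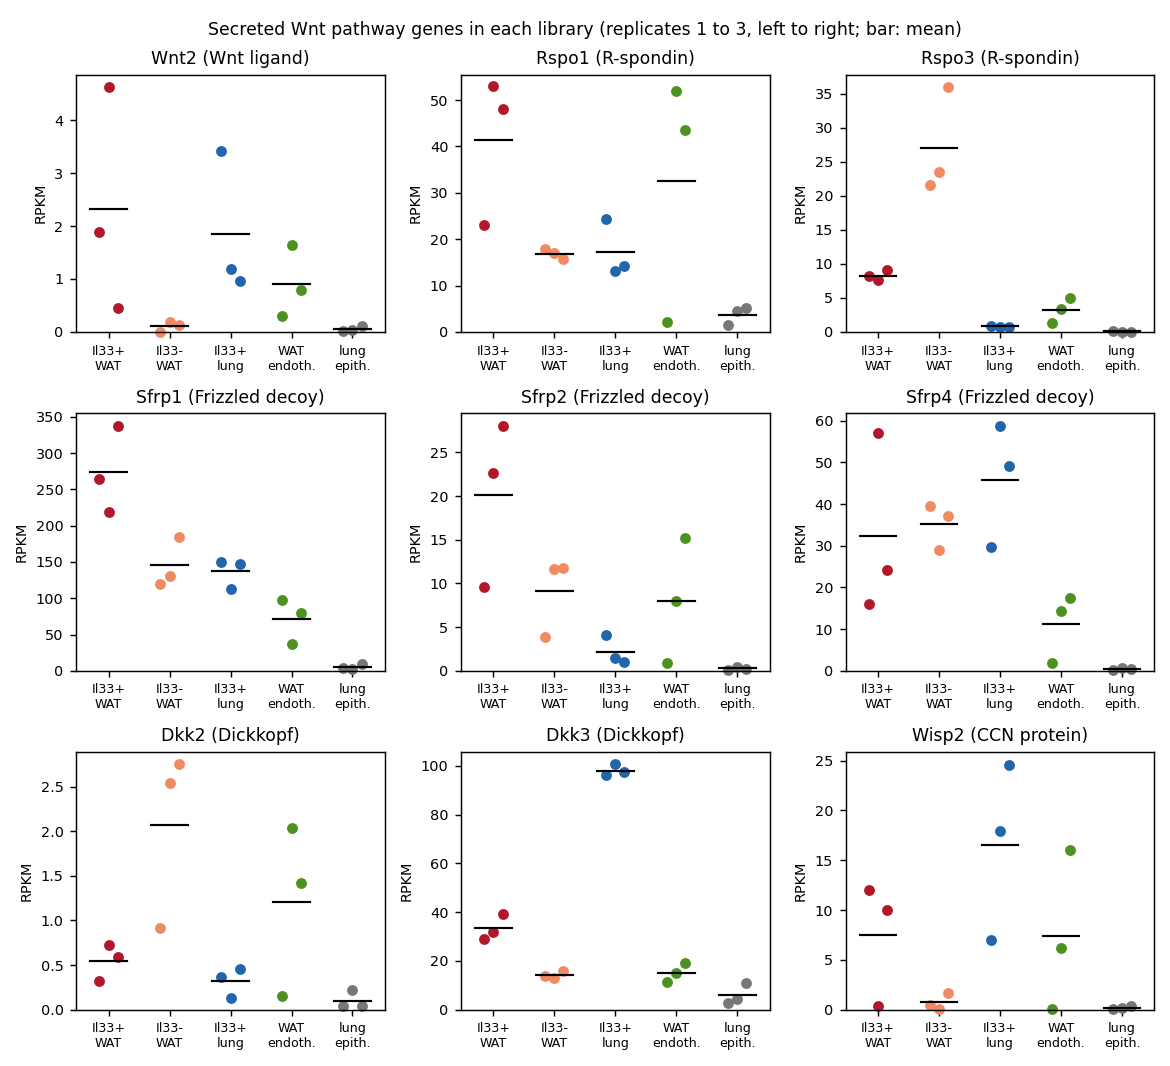
RPKM (linear axis from 0, own scale per gene) of the 9 genes in 5 sorted populations; each point is 1 library, in the order of replicates 1, 2 and 3, and the bar is the mean of 3. Sfrp1 was highest in the Il33+ WAT-MSC libraries (218 to 338 RPKM), Rspo3 in the Il33- WAT-MSC libraries (21.5 to 36.1 RPKM) and Dkk3 in the lung Il33+ MSC libraries (96.2 to 101 RPKM).

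Wnt2, a canonical ligand known for its role in lung development, was a low transcript here. Its levels were 1.88, 4.63 and 0.46 RPKM in Il33+ WAT-MSC and 0.00, 0.18 and 0.14 RPKM in Il33- WAT-MSC. In lung Il33+ MSC they were 3.41, 1.18 and 0.96 RPKM. Each Il33+ WAT-MSC library was above each Il33- WAT-MSC library, but the gene was below the filter for a test in that comparison, and the Il33+ populations of the 2 tissues overlapped. The endothelial libraries held 0.31, 1.64 and 0.79 RPKM and the epithelial libraries at most 0.11 RPKM.

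Rspo1 and Rspo3, the R-spondins of the set, had different orders across the populations. Rspo3 lies on chromosome 10 at 29453106 to 29535867, and Rspo1 on chromosome 4 at 124986401 to 125009102 (RefSeq, GRCm38.p6). Rspo3 was at 21.54, 23.49 and 36.06 RPKM in Il33- WAT-MSC. It was at 8.16, 7.59 and 9.14 RPKM in Il33+ WAT-MSC and at 0.88, 0.79 and 0.78 RPKM in lung Il33+ MSC. The endothelial libraries, with 1.38, 3.33 and 5.06 RPKM, fell between the 2 Il33+ populations, and the epithelial libraries held 0.04 to 0.11 RPKM. No 2 neighbours in this order overlapped, which held for Rspo3 alone among the 9 genes. How often this held over all genes was not computed. By contrast, Rspo1 was at 23.10, 52.95 and 48.00 RPKM in Il33+ WAT-MSC and at 17.85, 17.08 and 15.76 RPKM in Il33- WAT-MSC. Lung Il33+ MSC held 24.27, 13.15 and 14.23 RPKM of Rspo1, a range that covered that of Il33- WAT-MSC. Rspo3 therefore made up 54.7 to 69.6% of the summed R-spondin level in Il33- WAT-MSC, 12.5 to 26.1% in Il33+ WAT-MSC and 3.50 to 5.67% in lung Il33+ MSC. These 3 ranges did not overlap.

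**Figure D2:**
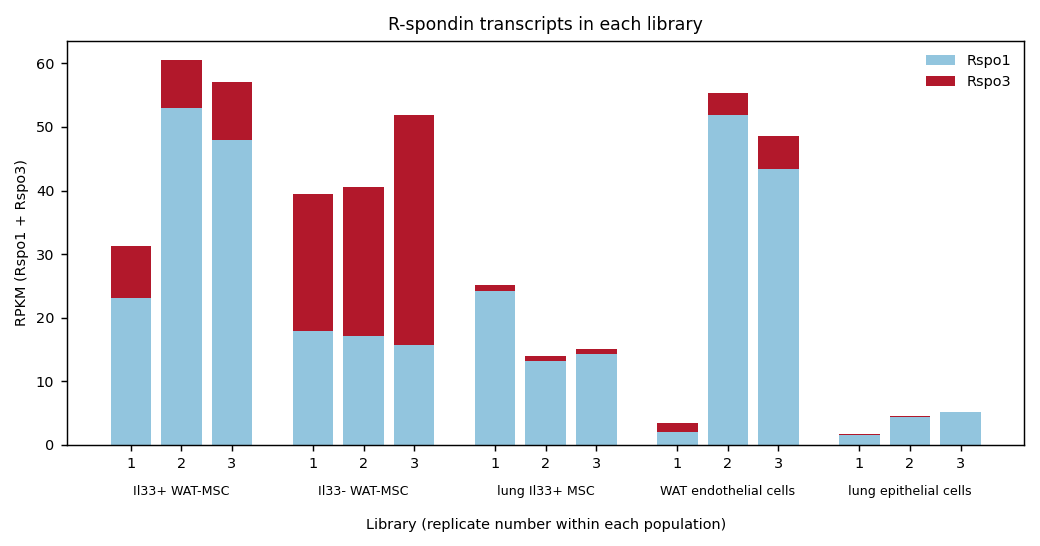
RPKM of Rspo1 (blue) and Rspo3 (red) stacked for each of the 15 libraries, grouped by population and numbered by replicate. Rspo3 takes 54.7 to 69.6% of the bar in Il33- WAT-MSC and at most 26.1% in Il33+ WAT-MSC, and the first endothelial library stands at 3.42 RPKM beside 55.3 and 48.5 RPKM in the other two.

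Among the Frizzled-related proteins, Sfrp1 was the most abundant in each library. It lies on chromosome 8 at 23411383 to 23449632. Its levels were 264, 218 and 338 RPKM in Il33+ WAT-MSC and 120, 131 and 185 RPKM in Il33- WAT-MSC. They were 151, 113 and 148 RPKM in the lung stroma and 97.9, 36.4 and 80.2 RPKM in endothelial cells. Epithelial cells held 4.33, 2.95 and 8.80 RPKM. Il33+ WAT-MSC stood above each other population without overlap, and Sfrp1 ranked 71 among all gene symbols by mean there, while Il33- WAT-MSC and lung Il33+ MSC overlapped.

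Sfrp2, a related Wnt-binding protein, had higher means in the WAT populations than in those of lung. It was at 9.57, 22.69 and 28.06 RPKM in Il33+ WAT-MSC and at 3.85, 11.69 and 11.79 RPKM in Il33- WAT-MSC. Lung Il33+ MSC held 4.07, 1.42 and 0.99 RPKM and epithelial cells 0.12 to 0.43 RPKM. The WAT populations overlapped each other. Lung Il33+ MSC were below each Il33+ WAT-MSC library, but overlapped Il33- WAT-MSC and the endothelial libraries (0.87, 7.98 and 15.18 RPKM). Sfrp4 had another order: lung Il33+ MSC held 29.67, 58.85 and 49.15 RPKM, beside 39.62, 28.89 and 37.10 RPKM in Il33- WAT-MSC and 16.03, 56.96 and 24.26 RPKM in Il33+ WAT-MSC. These 3 stromal ranges overlapped, and the epithelial libraries were at 0.28 to 0.57 RPKM.

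Dkk3, a divergent Dickkopf protein, had its highest level in lung. It lies on chromosome 7 at 112116019 to 112159482. Lung Il33+ MSC held 96.15, 100.72 and 97.44 RPKM, a coefficient of variation of 2.40%, the lowest of any member in any population. Il33+ WAT-MSC held 28.99, 31.77 and 39.18 RPKM and Il33- WAT-MSC 13.74, 13.10 and 16.02 RPKM. The 3 stromal ranges did not overlap, whereas Il33- WAT-MSC overlapped the endothelial libraries (11.43, 15.06 and 19.21 RPKM). Dkk2, which binds LRP co-receptors, was at 0.92, 2.54 and 2.75 RPKM in Il33- WAT-MSC and at 0.32, 0.73 and 0.59 RPKM in Il33+ WAT-MSC. All Il33- libraries were above all Il33+ libraries, though the levels were too low to pass the filter for a test.

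Wisp2, also named Ccn5, is a secreted CCN-family protein known from adipose precursor cells. Its libraries varied widely within a population: Il33+ WAT-MSC held 12, 0.40 and 10 RPKM, lung Il33+ MSC 6.98, 17.88 and 24.60 RPKM, and Il33- WAT-MSC 0.43, 0.08 and 1.72 RPKM. The second Il33+ WAT-MSC library was within the Il33- range. Lung Il33+ MSC were above each Il33- WAT-MSC library, and epithelial cells held at most 0.34 RPKM.

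The comparison of Il33+ with Il33- WAT-MSC asked how the reporter-positive stromal cells of 1 tissue differ from their reporter-negative neighbours. Rspo3 was lower and Dkk3 higher in Il33+ cells. In each comparison log2(RPKM + 1) was fitted with limma over all genes at 1 RPKM or more in at least 3 of the 6 libraries, and a gene was called at a Benjamini-Hochberg adjusted p under 0.05. Of the 9 genes, 7 were tested and 2 were called, where 1.57% of all 8448 genes tested were called. Rspo3 fell by 1.56 on the log2 scale (standard error 0.27, limma adjusted p = 0.0148), and its mean RPKM was 3.26-fold higher in Il33- cells. Dkk3 differed by 1.16 (standard error 0.23, limma adjusted p = 0.0330). The values within lane 1, with 2 libraries a group, were -1.41 for Rspo3 and 1.12 for Dkk3, and within lane 2, with 1 library a group, -1.87 and 1.24. Dkk3 lost its call when any 1 library was left out (limma adjusted p 0.0546 to 0.184), and Rspo3 without Il33+ replicate 1 or without Il33- replicate 2 or 3 (0.0624, 0.0505 and 0.0765).

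Sfrp1, Rspo1, Wisp2 and Sfrp2 had positive differences that did not pass the test over all genes. The libraries did not overlap for 4 of the 7 tested genes (Sfrp1, Dkk3 and Rspo1 higher, Rspo3 lower), where 17.5% of all genes tested did not overlap. Sfrp1 differed by 0.91 (95% interval 0.35 to 1.47, limma adjusted p = 0.137), and its mean RPKM was 1.88-fold that of Il33- cells. With median-ratio scaling it passed, at 0.89 and an adjusted p of 0.0424, and a replicate block called both Sfrp1 and Rspo1. Rspo1 differed by 1.16 (95% interval 0.49 to 1.83, limma adjusted p = 0.108) and passed without Il33+ replicate 1, its lowest Il33+ library, at 1.52 and an adjusted p of 0.0325. The difference was 1.86 for Wisp2 (95% interval 0.24 to 3.48, limma adjusted p = 0.348). It passed in 1 of 15 settings, without Il33+ replicate 2, its lowest Il33+ library, at 2.89 and an adjusted p of 0.0203. Sfrp2 differed by 1.07 (limma adjusted p = 0.387) and Sfrp4 by -0.30 (95% interval -1.14 to 0.55). The median over the 7 tested genes was 1.07, against -0.01 over all genes tested. The genes were chosen with earlier results of these data known, so these medians are no independent test of a shift.

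The summed markers of mesothelium, the cell layer that covers the mesentery, were higher in each Il33+ than in each Il33- WAT-MSC library, as was Rspo1. The summed RPKM of 9 mesothelial genes (Rspo1 left out) was 41.9, 107 and 134 in Il33+ WAT-MSC replicates 1 to 3, against 23.7, 38.0 and 22.7 in Il33- WAT-MSC, and no gene of the list was at 0 in all 3 libraries of either population. The lowest sum and the lowest Rspo1 of Il33+ WAT-MSC fell in the same library. In lung Il33+ MSC, by contrast, replicate 1 held the highest Rspo1 (24.27 RPKM) and the lowest sum (8.77 RPKM). Il33- WAT-MSC replicate 1 had the highest Rspo1 of its population (17.85 RPKM), and Wt1 (23.61 RPKM) made up nearly all of its sum. Upk3b was at 7.13, 13.15 and 20.76 RPKM in Il33+ cells and 0.00, 3.44 and 3.20 RPKM in Il33- cells, while Wt1 was at 10.7 to 23.6 RPKM in Il33- cells and 9.80 to 15.1 RPKM in Il33+ cells. The part of these cells in the Rspo1, Sfrp2 and Wnt2b values was not tested.

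RefSeq windows around a start site (GRCm38.p6, 250 bases before to 50 after it) were at hand for 4 of the 9 genes, Sfrp2, Dkk2, Rspo1 and Wnt2. The start site lay inside the RefSeq gene span, 29 bases from its 5′ edge for Rspo1, 26 for Dkk2, 571 for Sfrp2 and 2327 for Wnt2, so the Sfrp2 and Wnt2 windows do not cover the outermost start of the gene. Those of Rspo1 (chr4:124986180-124986479, plus strand) and Sfrp2 (chr3:83766071-83766370, plus strand) are shown. Both genes had their lowest WAT level in endothelial replicate 1 and their lowest Il33+ WAT-MSC level in replicate 1. The same held for Dkk2, at 0.15 and 0.32 RPKM, whose window is not shown. Each CG dinucleotide is in capitals.
Rspo1: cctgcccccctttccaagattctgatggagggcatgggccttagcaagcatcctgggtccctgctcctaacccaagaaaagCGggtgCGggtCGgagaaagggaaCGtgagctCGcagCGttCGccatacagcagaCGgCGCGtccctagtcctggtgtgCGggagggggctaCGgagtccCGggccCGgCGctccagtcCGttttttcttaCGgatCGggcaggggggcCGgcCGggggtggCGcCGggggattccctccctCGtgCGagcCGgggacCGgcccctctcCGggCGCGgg
Sfrp2: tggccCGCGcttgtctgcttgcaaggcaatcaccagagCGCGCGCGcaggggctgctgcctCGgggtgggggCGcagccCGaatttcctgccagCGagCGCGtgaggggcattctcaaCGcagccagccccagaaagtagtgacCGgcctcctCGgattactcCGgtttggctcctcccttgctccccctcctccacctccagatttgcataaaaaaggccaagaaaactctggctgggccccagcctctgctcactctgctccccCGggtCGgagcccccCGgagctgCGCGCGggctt
The Rspo1 window held 29 CG dinucleotides and the Sfrp2 window 22, beside 27 for Wnt2, 11 for Dkk2 and a median of 7 over 32851 windows. Searched on both strands, the letters TATAAA occurred only in the Dkk2 window of the 4, where 13.6% of all windows held them. CTTTGA, the core that TCF and LEF factors recognise, was in none of the 4 windows and in 16% of all. GGGCGG was in the windows of Dkk2 and Wnt2 and in 35.7% of all. These matches describe the letters of the windows.

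The comparison of Il33+ WAT-MSC with lung Il33+ MSC set citrine-positive stromal cells of 2 tissues side by side. The sources used here state the full set of sort markers for WAT-MSC and not for lung. Rspo3, Sfrp2 and Sfrp1 were higher in WAT and Dkk3 was higher in lung. Of the 9 genes, 8 were tested and 4 were called, where 6.0% of all 8554 genes tested were called. The same 4 genes had libraries that did not overlap, as had 23.1% of all genes tested. Rspo3 was higher in WAT by 2.35 on the log2(RPKM + 1) scale (standard error 0.26, limma adjusted p = 0.000507), and its mean RPKM differed 10.2-fold. It passed the filter through WAT alone, since each lung library was below 1 RPKM, so a difference was given once it was tested. Dkk3 was higher in lung, with a log2 difference of -1.54 (standard error 0.18, limma adjusted p = 0.000792), a call that held in each of 16 alternative settings. Rspo3 was called in each as well, which adds no support where the filter had given the difference.

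Sfrp2 was higher in WAT by 2.74 (standard error 0.44, limma adjusted p = 0.00435), also in each of 16 settings, and Sfrp1 by 0.98 (standard error 0.22, limma adjusted p = 0.0234) in 11 of 16. The Sfrp1 call was lost in the fit of all 15 libraries (adjusted p = 0.236) and on leaving out Il33+ WAT-MSC replicate 1 or 3 or lung replicate 1 or 2 (0.0608 to 0.147). Rspo1 differed by 1.18 (95% interval 0.44 to 1.92, limma adjusted p = 0.0722), with overlapping libraries, and passed without Il33+ WAT-MSC replicate 1 (adjusted p = 0.0148). The intervals were -1.54 to 0.28 for Sfrp4, -3.09 to 0.24 for Wisp2 and -1.0 to 1.22 for Wnt2. Lane 1 held 2 WAT libraries and 1 lung library, and lane 2 the reverse. The within-lane differences were 2.24 and 2.51 for Rspo3, -1.63 and -1.32 for Dkk3, 1.64 and 3.73 for Sfrp2, and 0.67 and 1.38 for Sfrp1. Sfrp1 and Sfrp2 were thus more different in lane 2, with the same direction in both lanes.

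**Figure D3:**
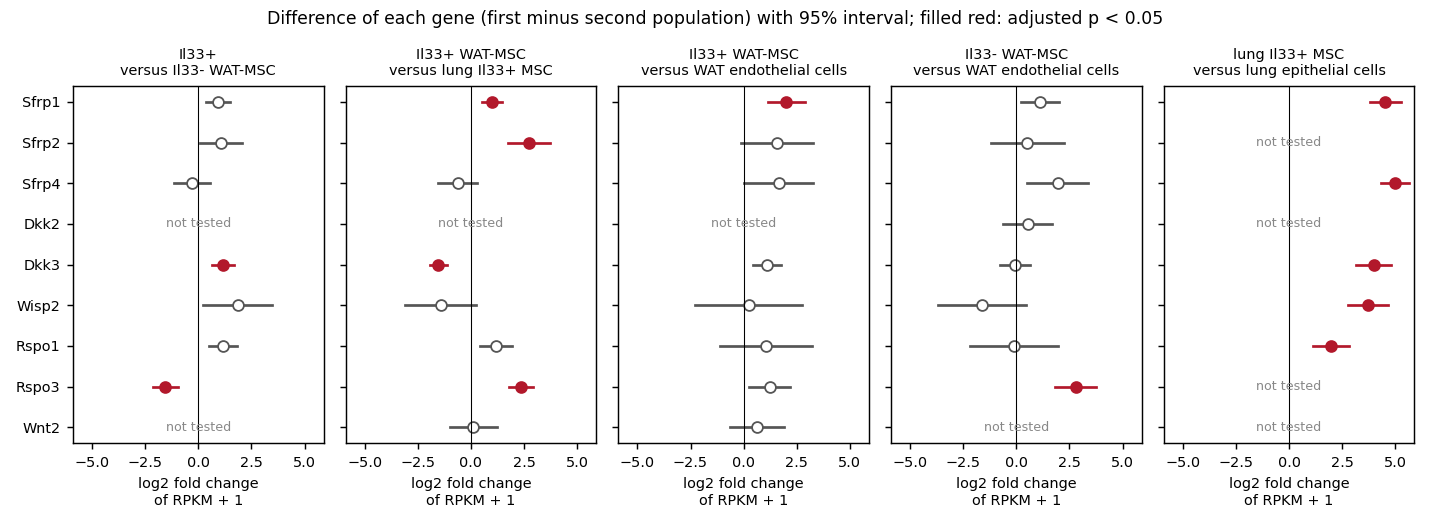
Log2 fold change of RPKM + 1 (first minus second population) of each gene in 5 comparisons with its 95% interval; filled red points passed an adjusted p of 0.05, open points did not, and genes under the filter are written as not tested. Rspo3 lies at -1.56 in Il33+ against Il33- WAT-MSC and at 2.35 in Il33+ WAT-MSC against lung Il33+ MSC, and all 5 tested genes lie between 1.99 and 5.0 in lung Il33+ MSC against epithelial cells.

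Within WAT, the stromal populations were set against endothelial cells. Sfrp1 was higher in Il33+ WAT-MSC than in endothelial cells by 2.01 (standard error 0.39, limma adjusted p = 0.0243), a 3.83-fold difference of the means. It was the 1 call among 8 tested genes, where 3.9% of all 8665 genes tested were called. Sfrp1, Dkk3 and Rspo3 did not overlap between these populations, as was the case for 23.2% of all genes. Dkk3 differed by 1.10 (limma adjusted p = 0.0939) and Rspo3 by 1.23 (0.200). The Sfrp1 call was lost without any single Il33+ WAT-MSC library and without endothelial replicate 2, at adjusted p-values of 0.0593 to 0.117. In Il33- WAT-MSC against endothelial cells Rspo3 was higher by 2.79 (standard error 0.43, limma adjusted p = 0.00526), 8.30-fold in the means, in each of 16 settings. It was again the 1 call among 8 tested genes, where 5.69% of all 8713 genes tested were called. Sfrp1, Sfrp4 and Rspo3 did not overlap here, as held for 23.8% of all genes. These comparisons share the endothelial libraries, and the first shares its Il33+ libraries with the comparisons above. Within lanes 1 and 2 the difference of Sfrp1 in Il33+ cells was 1.99 and 2.06, and that of Rspo3 in Il33- cells was 2.87 and 2.61.

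The endothelial libraries disagreed with each other for several of the genes. Rspo1 was at 2.04, 51.96 and 43.45 RPKM, Sfrp2 at 0.87, 7.98 and 15.18 RPKM, Sfrp4 at 1.85, 14.30 and 17.51 RPKM and Wisp2 at 0.02, 6.14 and 16.05 RPKM. The first library was the low one each time, and it also stood apart over all transcripts, with 10.9% of them at 0 against 3.78 and 2.58% in its fellows and a median-ratio size factor of 0.729 against 1.06 and 1.30. As a share of the Il33+ WAT-MSC mean, it held 4.93% for Rspo1, 4.33% for Sfrp2, 5.71% for Sfrp4 and 0.268% for Wisp2, but 35.8% for Sfrp1 and 34.3% for Dkk3. The median share of the 12 stromal marker genes was 28.0% in that library, with a lowest of 14.4%, and 32.9% and 62.9% in the second and the third. Sfrp1 stood at 13.3% and 29.3% in the second and the third, below the lowest stromal marker gene (20.9% and 44.6%), and Dkk3 at 45.2% and 57.7%. In those libraries Rspo1 stood at 126% and 105% of the Il33+ WAT-MSC mean, and the highest stromal marker gene stood at 84.2% in the second library and 124% in the third. The mesothelial sum was 56.7, 198 and 229 RPKM in the 3 endothelial libraries, and the second and the third exceeded each Il33+ WAT-MSC library. In the first, Upk3b and Lrrn4 were at 17.2 and 18.6 RPKM, but Upk1b and Wt1 at 0.17 and 0.75 RPKM. The part of mesothelial cells, stromal cells or the state of the first library in these values was not tested.

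**Figure D4:**
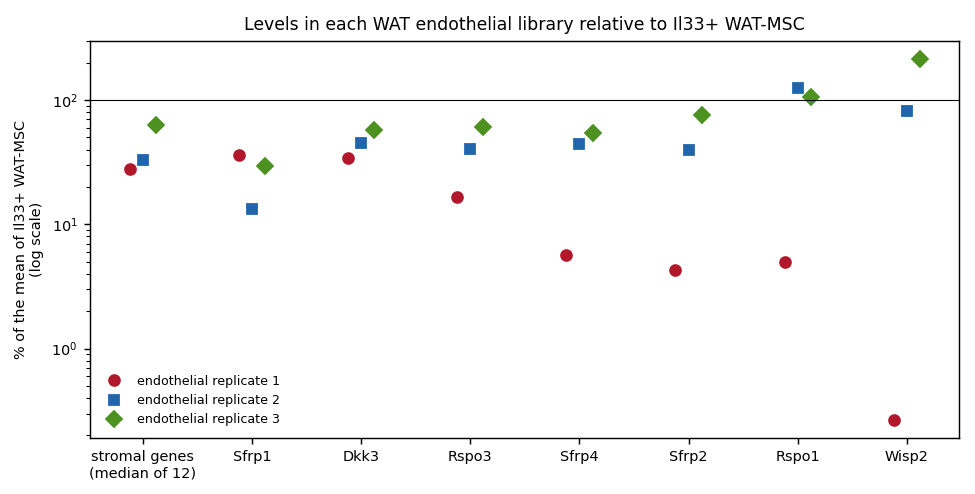
Level of 7 of the genes, and the median of 12 stromal marker genes, in each WAT endothelial library as a percent of the mean of Il33+ WAT-MSC (log axis; the line marks 100%). Sfrp1 and Dkk3 lie at 35.8 and 34.3% in replicate 1, where the stromal median is 28.0%. Sfrp2, Sfrp4, Rspo1 and Wisp2 lie at 0.268 to 5.71% there and at 39.7 to 215% in the other replicates. In replicates 2 and 3 Sfrp1 lies at 13.3 and 29.3%, below the lowest of the 12 stromal marker genes (20.9 and 44.6%).

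Leaving out that first library changed the Il33- WAT-MSC comparison. Rspo1 was then lower in Il33- WAT-MSC than in endothelial cells, with a difference of -1.44 (limma adjusted p = 0.0113), and Wisp2 with -2.77 (0.0150). Sfrp4 was higher in Il33- WAT-MSC (1.09, limma adjusted p = 0.0498), and Rspo3 stayed higher. With all 3 libraries the differences were -0.11 for Rspo1 (95% interval -2.19 to 1.97), -1.63 for Wisp2 (-3.70 to 0.44) and 1.95 for Sfrp4 (0.52 to 3.38).

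In lung, Il33+ MSC were set against epithelial cells. Sfrp4, Sfrp1, Dkk3, Wisp2 and Rspo1 were tested and all 5 were called higher in the stromal cells, where 24.4% of all 9352 genes tested were called higher and 43.0% were called in either direction. None of the 5 overlapped, as held for 53.4% of all genes. Sfrp4 and Wisp2 passed the filter through the stromal libraries alone, so a difference was given once they were tested. The count of 5 includes them. The difference was 5.0 for Sfrp4 (standard error 0.29, limma adjusted p = 1.89e-06) and 4.54 for Sfrp1 (0.33, adjusted p = 5.51e-06). Dkk3 differed by 3.98 (standard error 0.37, limma adjusted p = 2.58e-05), Wisp2 by 3.72 (0.42, 8.14e-05) and Rspo1 by 1.99 (0.38, 0.00207). Rspo1 was at 1.60, 4.43 and 5.13 RPKM and Dkk3 at 2.91, 4.27 and 11.06 RPKM in epithelial cells, so neither was absent there. The call of Rspo1 was lost in the fit of all 15 libraries (adjusted p = 0.0562), and its difference was 3.28 in lane 1 and 1.35 in lane 2. Median-ratio scaling moved the median of all genes in this comparison by -0.28 and turned the split of all calls from 56.9% higher to 44.3% higher. It moved the comparisons of endothelial cells with Il33+ and Il33- WAT-MSC by -0.13 and -0.12, and it ended no call of the 9 genes. Rspo3, Sfrp2, Wnt2 and Dkk2 were under the filter, and Dkk2 overlapped between the populations (0.37, 0.13 and 0.46 against 0.04, 0.22 and 0.04 RPKM). Lung Il33+ MSC were above epithelial cells without overlap in Rspo3 (0.78 to 0.88 against 0.04 to 0.11 RPKM), Sfrp2 (0.99 to 4.07 against 0.12 to 0.43 RPKM) and Wnt2 (0.96 to 3.41 against 0.02 to 0.11 RPKM).

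The other genes of the pathway were taken from lists of ligands, secreted modulators, CCN proteins, receptors, R-spondin receptors, secretion factors and glypicans, intracellular components and targets, in all 89 genes of which 51 were in the table. Between Il33+ and Il33- WAT-MSC 2 of 44 tested genes were called (4.55%, beside 1.57% of all genes), both higher in Il33+ cells. Wnt2b, a canonical ligand, was at 25.41, 26.46 and 28.54 RPKM in Il33+ WAT-MSC and at 1.75, 4.78 and 4.76 RPKM in Il33- WAT-MSC. It differed by 2.62 (standard error 0.32, limma adjusted p = 0.00349), with no overlap and a call in each of 16 settings. Its mean RPKM was 7.12-fold higher in Il33+ WAT-MSC, the opposite direction to Rspo3. In lung Il33+ MSC it was at 13.9 to 25.7 RPKM, above each Il33- WAT-MSC library. Ctgf, a CCN-family protein, differed by 1.57 (limma adjusted p = 0.0370), a call made in 5 of 16 settings. By limma, 0 of 12 receptors, 0 of 12 intracellular components and 0 of 7 targets were called here, and 2, 1 and 0 of them had an unadjusted p under 0.05. Axin2, a common target of β-catenin signalling, was at 1.68 to 4.33 RPKM in Il33+ and 1.89 to 4.74 RPKM in Il33- WAT-MSC.

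Between the Il33+ stroma of WAT and that of lung, 5 of 44 tested genes were called (11.4%, beside 6.0% of all genes). Nov, a CCN protein, was higher in WAT by 2.09 (limma adjusted p = 0.00210). Lower in WAT were Ctgf by -1.85 (limma adjusted p = 0.00196), Cyr61 by -1.81 (0.00106), the glypican Gpc3 by -0.99 (0.0107) and the transcription factor Tcf7 by -1.34 (0.0435, a call made in 4 of 15 settings). Tcf7 passed the filter through the lung libraries alone. The CCN relatives of Wisp2 thus went in both directions between the 2 stromal populations. In each comparison of WAT stroma with endothelial cells 2 of 45 tested genes were called (4.44%, beside 3.9% of all genes for Il33+ and 5.69% for Il33- WAT-MSC), a share near that of all genes. The receptor Fzd6 was lower in Il33+ and Il33- WAT-MSC, at -3.14 (limma adjusted p = 0.00517) and -3.12 (0.00419), but passed the filter through the endothelial libraries alone, so a difference was given once it was tested. Gpc6 was higher in Il33+ WAT-MSC (1.34, limma adjusted p = 0.0275), and Ctgf was lower in Il33- WAT-MSC (-2.24, 0.0272).

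**Figure D5:**
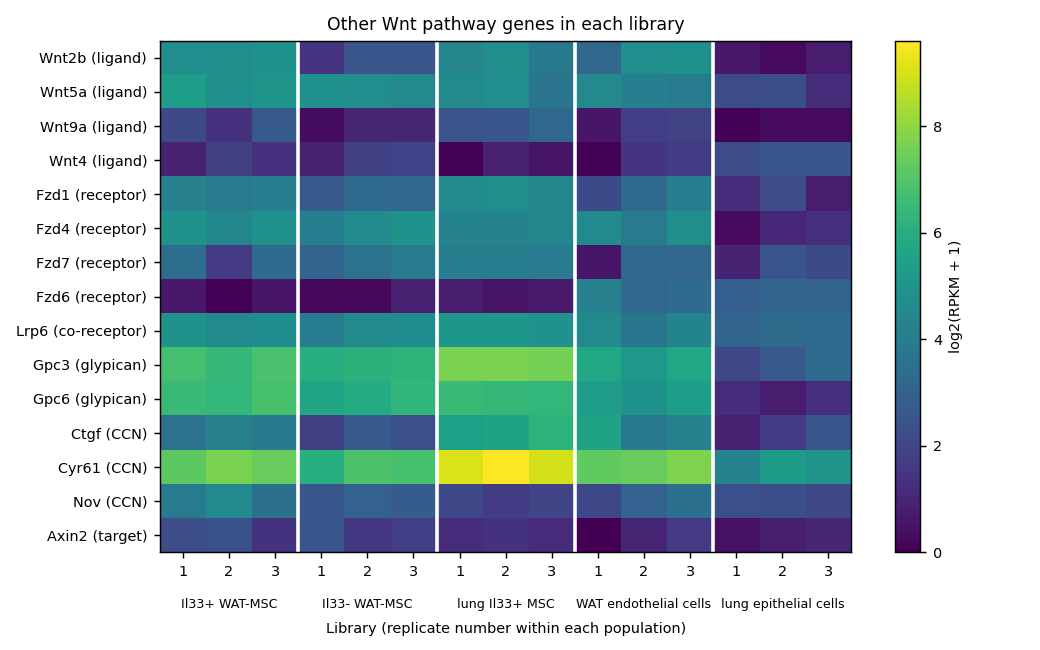
Log2(RPKM + 1), by colour, of 15 other Wnt pathway genes (rows, with their role) in each of the 15 libraries (columns, by population and replicate). Wnt2b was at 25.4 to 28.5 RPKM in Il33+ WAT-MSC and at 1.75 to 4.78 RPKM in Il33- WAT-MSC, and Fzd6 stood at 8.24 to 17.3 RPKM in endothelial cells and at most 0.86 RPKM in the WAT stroma.

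Between lung stroma and epithelium 26 of 49 tested genes were called, 18 higher in Il33+ MSC and 8 higher in epithelial cells, which is 53.1% beside 43.0% of all genes. Of the 26, 10 passed the filter through 1 population alone (Wnt2b, Wnt9a, Wnt4, Fzd6, Ror1, Lgr4, Wif1, Wisp1, Tcf7 and Apcdd1), so that a difference was given once they were tested. Of the ligands, Wnt2b (3.78), Wnt9a (2.55) and Wnt5a (2.38) were higher in lung Il33+ MSC and Wnt4 (-2.0) in epithelial cells. Fzd4 (3.41), Fzd1 (3.19) and Fzd7 (2.18) were the receptors with the largest differences towards the stroma, and Fzd6 (-2.39) and Fzd3 (-0.98) were higher in epithelial cells. The co-receptor Lrp6 differed by 1.74, and Lgr4, which binds R-spondins, by 1.09. Wif1, a secreted inhibitor that binds Wnt ligands, was at 2.31 to 2.49 RPKM in epithelial cells and listed at 0 in the 3 lung Il33+ MSC libraries. The glypicans Gpc6 (5.29) and Gpc3 (4.97) were higher in Il33+ MSC, whereas Porcn, which acylates Wnt ligands for secretion, was higher in epithelial cells (-2.66). Cyr61 (4.37), Ctgf (4.04) and Wisp1 (1.44) were also higher in the stroma. Of the intracellular components, Tcf7l2 (1.16) and Tcf7 (1.07) were higher in lung Il33+ MSC, and Ctnnb1 (-1.16) and Bcl9 (-1.13) in epithelial cells. Among targets Myc (3.52) and Apcdd1 (2.10) were higher in the stroma and Ccnd1 (-2.78) in the epithelium. The limma adjusted p-values of the genes named here for lung were 7.01e-07 for Gpc6 to 0.0246 for Fzd3.

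For each of the 9 genes, the genes with the most similar levels were found among 10168 others as the smallest root mean square difference of centred log2(RPKM + 1) over the 15 libraries. Rspo3 was nearest to Adam12 (0.33), a metalloproteinase, and to the collagen gene Col5a3 (0.41). Both had their highest mean in Il33- WAT-MSC, at 33.1 and 59.2 RPKM against 11.4 and 18.7 RPKM in Il33+ WAT-MSC. Sfrp1 was nearest to Gpc6 (0.42) and C1qtnf1 (0.44), and Sfrp4 to Srpx (0.52) and Plac9b (0.53). Dkk3 was nearest to Opcml (0.45) and Fgf23 (0.46), which were at 13.2 and 15.8 RPKM in lung Il33+ MSC. Sfrp2 (Mab21l2 at 0.62, Tmem255a at 0.72), Rspo1 (Stx4a at 0.64, Pramef8 at 0.65) and Wisp2 (Egflam and Nkain4, 0.80 each) had no gene as close as 0.60. The low genes Dkk2 (Kat2a and Supt20, 0.33 each) and Wnt2 (Pkia and Bhlhe40, 0.45 each) varied little over the libraries, with a root mean square of 0.61 and 0.77 of their own, beside 1.69 for Rspo3.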

How the data were processed

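RNA of sorted cells was amplified with the Nugen Ovation RNA-seq System V2 and sequenced on an Illumina HiSeq4000. The authors aligned reads with TopHat2 in Partek Flow, to mm10 by the submitters' processing notes, and deposited RPKM per transcript with 2 decimals; the counting and the annotation are not given in the sources used here. Of 12698 transcripts, 0.323% were below 1 RPKM in all libraries, so low transcripts may not be listed. RPKM holds no read counts, so no counting interval was given. RPKM was summed per symbol (10222), and log2(RPKM + 1) was fitted with limma 3.58.1 in R 4.3.3 on the 6 libraries compared, for genes at 1 RPKM or more in at least 3 of them, with Benjamini-Hochberg adjustment over all genes tested. Fold changes on this scale understate those of low genes. With 3 against 3 libraries an exact permutation test cannot go below p = 0.1, so none was used. The script was tested on simulated data. Lanes came from the labels (8 libraries in lane 1, 7 in lane 2). Named were all 9 genes, up to 3 called genes per direction, list and comparison, the 2 genes most alike to each, and the markers beside a result. Lrp6, Axin2 and the called genes that passed the filter through 1 population were named in addition. The members and lists were chosen with earlier results of these data known. Alternatives were a pseudocount of 0.1, no filter, a filter at 5 RPKM, a lane covariate, a replicate block, all 15 libraries in 1 fit, median-ratio and quantile scaling, the most abundant transcript, transcripts in place of symbols, and each library left out.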

Additional observations from a re-analysis of the deposited data

How the results depend on the processing

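Of 571 refitted differences of the 9 genes, 521 kept their direction and their side of the threshold, 24 lost a call, 12 gained one and 14 changed sign. With no filter on low values 0 of the 9 genes were called between Il33+ and Il33- WAT-MSC, 0 between Il33+ WAT-MSC and endothelial cells (6 and 3 of 9 by limma at an unadjusted p under 0.05), and 8 between lung Il33+ MSC and epithelial cells, where the 3 added genes had not been tested. In 1 fit of all 15 libraries the counts were 1 between Il33+ and Il33- WAT-MSC, 3 between Il33+ WAT-MSC and endothelial cells (Dkk3 and Rspo3 added) and 2 between Il33- WAT-MSC and endothelial cells (Sfrp4 added). At transcript level 1 gene was called between Il33+ and Il33- WAT-MSC. Leaving out each library gave 0 to 2 calls between Il33+ and Il33- WAT-MSC, 0 to 1 between Il33+ WAT-MSC and endothelial cells, and 1 to 4 between Il33- WAT-MSC and endothelial cells, the 4 without endothelial replicate 1. Where no gene was called, 2 to 6 had an unadjusted p under 0.05. The cause of these changes was not tested. Replicate numbers were not taken as pairs, since no comparison had all 3 same-number correlations over 0.1. That cut cannot show that the samples are unpaired. Each library correlated best with its own number between Il33+ and Il33- WAT-MSC, between Il33- WAT-MSC and endothelial cells, and between lung stroma and epithelium. The mean same-number correlations there were 0.070, 0.102 and 0.087, against -0.035, -0.048 and -0.043 for other numbers. A replicate block gave 4 calls between Il33+ and Il33- WAT-MSC, adding Sfrp1 (limma adjusted p = 0.0303) and Rspo1 (0.0490), with 232 in place of 133 calls over all genes, and each library of that comparison correlated best with its own number; the block changed no other call of the 9 genes. The sign changed in some settings for differences that were not called as reported. Leaving out each library gave -0.79 to 0.092 for Sfrp4 between Il33+ and Il33- WAT-MSC, and -0.38 to 0.60 for Wnt2 between WAT and lung, which was also negative with lane as a covariate (-0.32). Between Il33+ WAT-MSC and endothelial cells the ranges were -0.92 to 1.26 for Wisp2 and -0.28 to 1.78 for Rspo1. Between Il33- WAT-MSC and endothelial cells they were -0.38 to 1.17 for Sfrp2, -0.24 to 0.11 for Dkk3 and -1.44 to 0.62 for Rspo1, which stood at 0.0039 with a pseudocount of 0.1. Over all genes, the calls ranged across settings from 45 to 232 between Il33+ and Il33- WAT-MSC (133 as reported), 261 to 548 between WAT and lung stroma (513), 131 to 805 and 222 to 1030 for Il33+ and Il33- WAT-MSC against endothelial cells (338 and 496), and 2699 to 4767 for lung stroma against epithelium (4019).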
